A study of Mus musculus with 11 samples.

Results

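The endothelial identity genes are a set of 34 genes of the blood vessel lining that was followed through sorted cells of the mouse adrenal gland. They were chosen by name and matched by gene symbol, and all 34 were found among the 49671 genes of the count table, 34475 of them with a count in 1 library or more. All 34 also passed the filter on low counts, which left 20893 genes to test. The cells came from 6 male Nes-GFP mice, whose green fluorescent protein (GFP) is driven by regulatory DNA of Nestin, which encodes an intermediate filament protein of progenitor cells. The cortex, which makes steroid hormones, was dissected from the medulla, which holds the catecholamine-producing chromaffin cells. Each tissue was pooled in 3 lots of 2 mice, digested, and sorted by fluorescence into tubes of 180 to 300 cells. The 11 libraries form 4 groups, with 3 libraries of GFP-positive and 3 of GFP-negative cells from the cortex, and 3 of GFP-positive and 2 of GFP-negative cells from the medulla. In both cortical groups, libraries 1 and 2 are from mice of about 3.5 months and library 3 is from mice of about 2.5 months. Of the medullary GFP-positive libraries, number 1 is from the older mice and numbers 2 and 3 are from the younger, and both medullary GFP-negative libraries are from the older mice. All groups carry the reporter, none received a treatment, and the labels do not say which pool gave which library. Libraries of a group with the same age may therefore come from the same mice, and an n of 3 or 2 counts libraries. If each pool is of 1 age, 3 pools cannot include both 2 older and 2 younger ones. At least 1 group would then hold 2 libraries from the same mice. The p-values reflect how much single libraries vary, for technical reasons included.

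Endothelial cells line every vessel and form the fenestrated sinusoids that carry blood from the adrenal surface inwards. Their growth and survival depend on receptors for vascular endothelial growth factors (VEGF), angiopoietins, bone morphogenetic proteins (BMP) and adrenomedullin. Transcription factors of the ETS and SOX families hold many genes of this identity active, and several genes in the set are also used by blood cells, among them Stab1, Fli1, Tal1 and Cd34. No endothelial cells were sorted for, so each value here is the RNA of such cells, or of other cells that use the gene, diluted in everything else that passed the gate. In bulk samples of this kind, fewer endothelial cells and less of the transcript per cell cannot be told apart.

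The libraries held 18500690 to 29204212 counts each, and levels are given as CPM, the usual unit of counts scaled to a common library size, after adjustment for library composition. Nes stood at 35.2 to 50.8 CPM in cortical GFP-positive and 4.59 to 7.44 CPM in cortical GFP-negative cells, and at 69.2 to 178 CPM in medullary GFP-positive and 16.1 and 26.1 CPM in medullary GFP-negative cells, higher with GFP in both tissues. A list of 14 macrophage genes summed to 79.6 to 370 CPM in cortical GFP-positive and 4432 to 6466 CPM in cortical GFP-negative cells. In the medulla the same list summed to 524 to 1504 CPM in GFP-positive and 24518 and 25519 CPM in GFP-negative cells, with all 14 genes detected in every library. A list of 7 glial genes ran the other way, with 1094 to 3033 CPM in medullary GFP-positive and 14.4 and 18.4 CPM in medullary GFP-negative cells, and with 129 to 237 CPM in cortical GFP-positive and 2.95 to 10.8 CPM in cortical GFP-negative cells. Red blood cell genes reached 811 CPM in cortical GFP-positive library 1 and at most 1.86 CPM in the other 10 libraries. A list of 6 steroid genes summed to 58899 to 65152 CPM in cortical GFP-positive and 32916 to 37559 CPM in cortical GFP-negative cells. In the medulla it still summed to 20516 to 35661 CPM in GFP-positive and 7660 and 14624 CPM in GFP-negative cells. A list of 6 chromaffin genes summed to 4819 to 8868 CPM in medullary libraries and at most 88.8 CPM in cortical libraries.

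As a set, the endothelial identity genes were present in every group at moderate levels. Their CPM summed to 232, 707 and 417 in the cortical GFP-positive libraries, against 341, 566 and 365 in the cortical GFP-negative libraries. In the medulla they summed to 734, 770 and 727 in the GFP-positive libraries, against 1228 and 2616 in the GFP-negative libraries. Every library held counts for at least 32 of the 34 genes, and the sums of the cortical groups overlap. The medullary GFP-negative libraries lie above all the others and apart from each other: library 2 exceeded library 1 in 33 of 34 genes, by a median of 3.11 times, and was the highest of the 11 libraries for 27 genes. For the 14 macrophage genes the median ratio of library 2 over library 1 was 0.970, with single genes at 0.772 to 3.03. Their sums were 25519 CPM in library 1 and 24518 CPM in library 2. Steroid genes summed to 14624 CPM in library 1 and 7660 CPM in library 2, and chromaffin genes to 7517 and 4819 CPM. These 2 libraries therefore differ in more than endothelial transcript. Within the cortical GFP-positive group, library 2 was the highest for 30 genes and library 1 the lowest for 30.

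**Figure D1:**
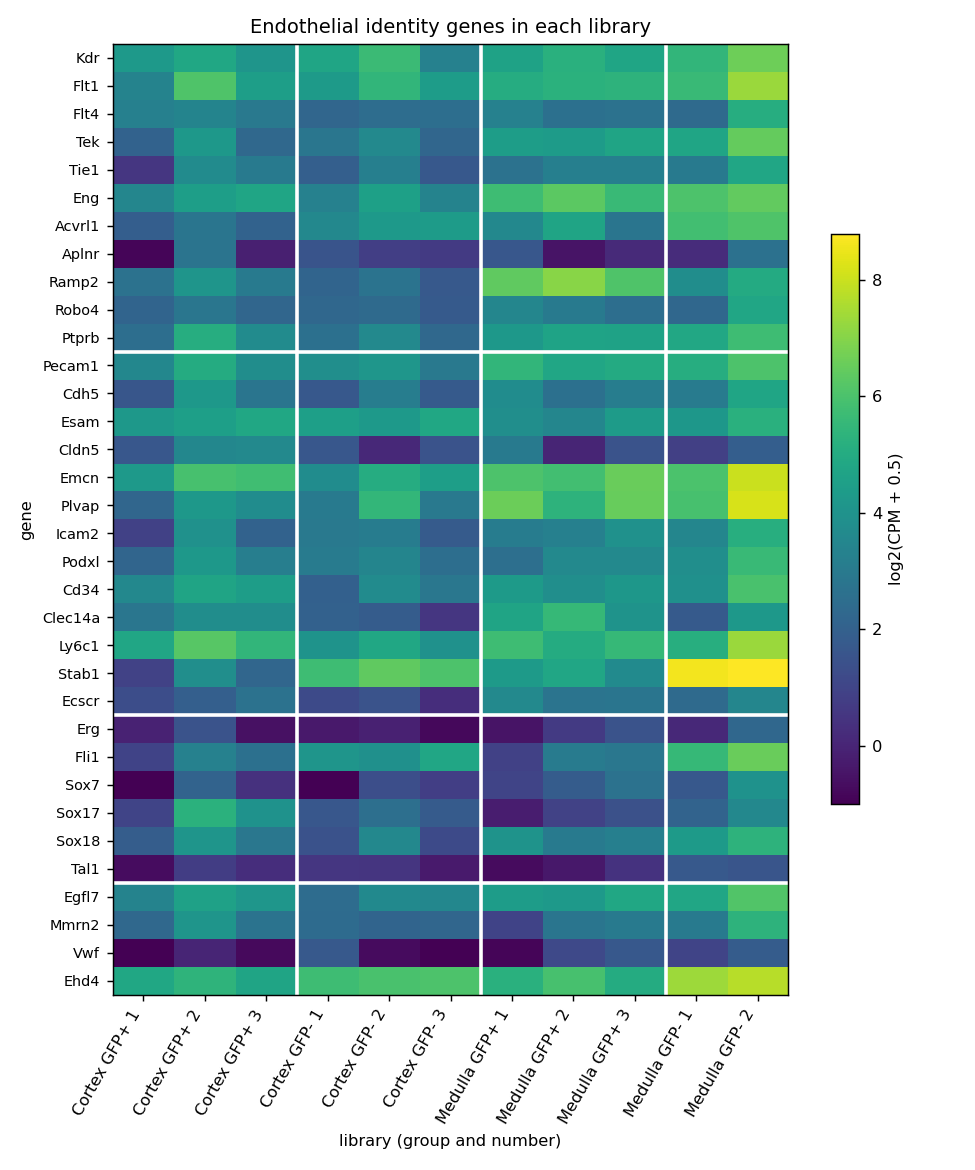
Heat map of log2(CPM + 0.5) for the 34 endothelial identity genes (rows, in blocks of receptors, junction and surface proteins, transcription factors, and secreted and other proteins) in the 11 libraries (columns, in blocks of groups). The last column, medullary GFP-negative library 2, holds the highest value of 27 genes, and Stab1 is brightest in the medullary GFP-negative libraries.

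Per kilobase of gene length, the order of the genes within a group differed between gates and tissues. In cortical GFP-positive cells the mean was highest for Ly6c1, a small surface protein of endothelium and monocytes, at 28.8 CPM per kb, followed by Emcn at 8.25 and Esam at 7.94 CPM per kb. In cortical GFP-negative cells the highest means were those of Ehd4 at 15.0, Ly6c1 at 11.7 and Plvap at 9.81 CPM per kb. Medullary GFP-positive cells had Plvap at 37.9, Ramp2 at 28.4 and Ly6c1 at 26.1 CPM per kb, and medullary GFP-negative cells had Plvap at 89.5, Ly6c1 at 56.8 and Ehd4 at 46.3 CPM per kb. Neighbours in these orders overlapped in their libraries for 32 of 33 pairs in both GFP-positive groups and in medullary GFP-negative cells, and for all 33 in cortical GFP-negative cells. Ly6c1 in cortical GFP-positive cells was an exception, with at least 16.1 CPM per kb against at most 11.2 for Emcn. Vwf, Tal1 and Erg were among the 5 lowest genes in all 4 groups. Ly6c1 has a close paralog, Ly6c2, used by monocytes, so its reads are uncertain.

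The 34 genes were compared in a fit of all 20893 genes with edgeR's quasi-likelihood test, and a gene is said to rise or fall where its adjusted p is under 0.05. In the cortex, GFP-positive cells had 0 genes of the set higher and 3 lower than GFP-negative cells, Stab1, Acvrl1 and Ehd4, or 8.82% of the set lower, against a background over all genes tested of 7.14% higher and 7.59% lower. Among the set, 10 genes had an unadjusted p under 0.05 there, which was not counted over all genes. DESeq2 called 3 of the 34 higher, beside 2212 of all 20893 genes. In the medulla, 1 gene was higher in GFP-positive cells, Ramp2, and 4 were lower, Stab1, Fli1, Ehd4 and Acvrl1, or 11.8% of the set lower, against 10.2% higher and 11.1% lower over all genes. By edgeR the shares of lower genes are near the background in both tissues, and those of higher genes, 0 and 2.94%, are below it. The median log2 difference was 0.52 in the cortex and -1.16 in the medulla, beside 0.03 and 0.09 over all genes tested. Both medians depend on single libraries. The cortical median was -0.04 without cortical GFP-positive library 2, 0.93 without GFP-positive library 1, 0.94 without GFP-negative library 2 and 0.30 without GFP-negative library 3. The medullary median was -0.01 without medullary GFP-negative library 2 and -1.84 without library 1 of that group. It was -0.85 with age as a term and -0.81 with the replicate number as a block. Age and gate are partly tied in the medulla, where both GFP-negative libraries are from the older mice.

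Between the tissues, GFP-negative cells differed more. With cortex set over medulla, 15 of 34 genes were lower in cortical GFP-negative cells and 0 were higher, or 44.1% of the set lower, against 10.6% lower and 8.06% higher over all genes. All 34 log2 differences were negative, with a median of -1.98 beside -0.02 over all genes, and the libraries of the 2 groups did not overlap for 23 genes, or 67.6%, against 26.1% of all genes in that direction. Medullary GFP-negative library 1 lay above every cortical GFP-negative library for these same 23 genes. That restates the lack of overlap, as library 2 exceeded library 1 in 33 of 34 genes. The count of passing genes depends on medullary GFP-negative library 2. Without it fewer genes passed, in the set and over all genes, the median was -1.0 and 30 of 34 differences stayed negative. The count was 5 without cortical GFP-negative library 1, where 1422 of 20729 genes were lower. It was also 5 without library 3 of that group, where 1639 of 20762 genes were lower. With all libraries 2209 of 20893 genes were lower. All 14 macrophage genes had negative differences in the same comparison too, and 11 of them passed. A list of 10 pericyte and smooth muscle genes summed to 2.09 to 6.86 CPM in cortical and 135 to 149 CPM in medullary GFP-negative cells. Of these 10, 9 had negative differences, 1 had a positive one, and 2 passed as lower in the cortex. The median of the 10 was 1.15 and 0.771 CPM in the medullary GFP-negative libraries, so the sum rests on some of them. A list of 7 fibroblast genes summed to 2.39 to 15.3 CPM in cortical and 50.9 to 56.3 CPM in medullary GFP-negative cells. A list of 7 platelet genes, with 3 to 4 detected per library, summed to 15.0 to 33.1 CPM in cortical and 309 to 455 CPM in medullary GFP-negative cells. Of these 7, 2 were tested: 1 passed as lower in the cortex and the other had a positive difference. The median of the 7 was 0.0730 and 0.0406 CPM in the medullary GFP-negative libraries, so few genes carry that sum. The part of these cell types in the result was not tested.

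In GFP-positive cells, cortex over medulla, 1 gene of the set was higher in the cortex, Sox17, and 3 were lower, Ramp2, Eng and Acvrl1, against a background of 6.04% higher and 9.45% lower. The median difference was -0.41 beside -0.03 over all genes, and 22 of 34 differences were negative. Without cortical GFP-positive library 1 the median was -0.05 with 17 negative differences, without library 2 of that group it was -1.01 with 28, and without library 3 it was -0.25 with 21. A single gene was called lower without cortical GFP-positive library 1 or without medullary GFP-positive library 2. The interaction, which asks whether the gate difference in the cortex exceeds that in the medulla, called 0 genes of the set in either direction, against 1.61% of all genes (0.857% higher and 0.756% lower). Its estimates were positive for 32 of 34 genes with a median of 1.71. In the set 10 genes had an unadjusted p under 0.05, which was not counted over all genes. DESeq2 called 4 of the 34 higher, beside 774 of all 20893 genes. The median of 1.71 became 0.63 without medullary GFP-negative library 2.

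**Figure D2:**
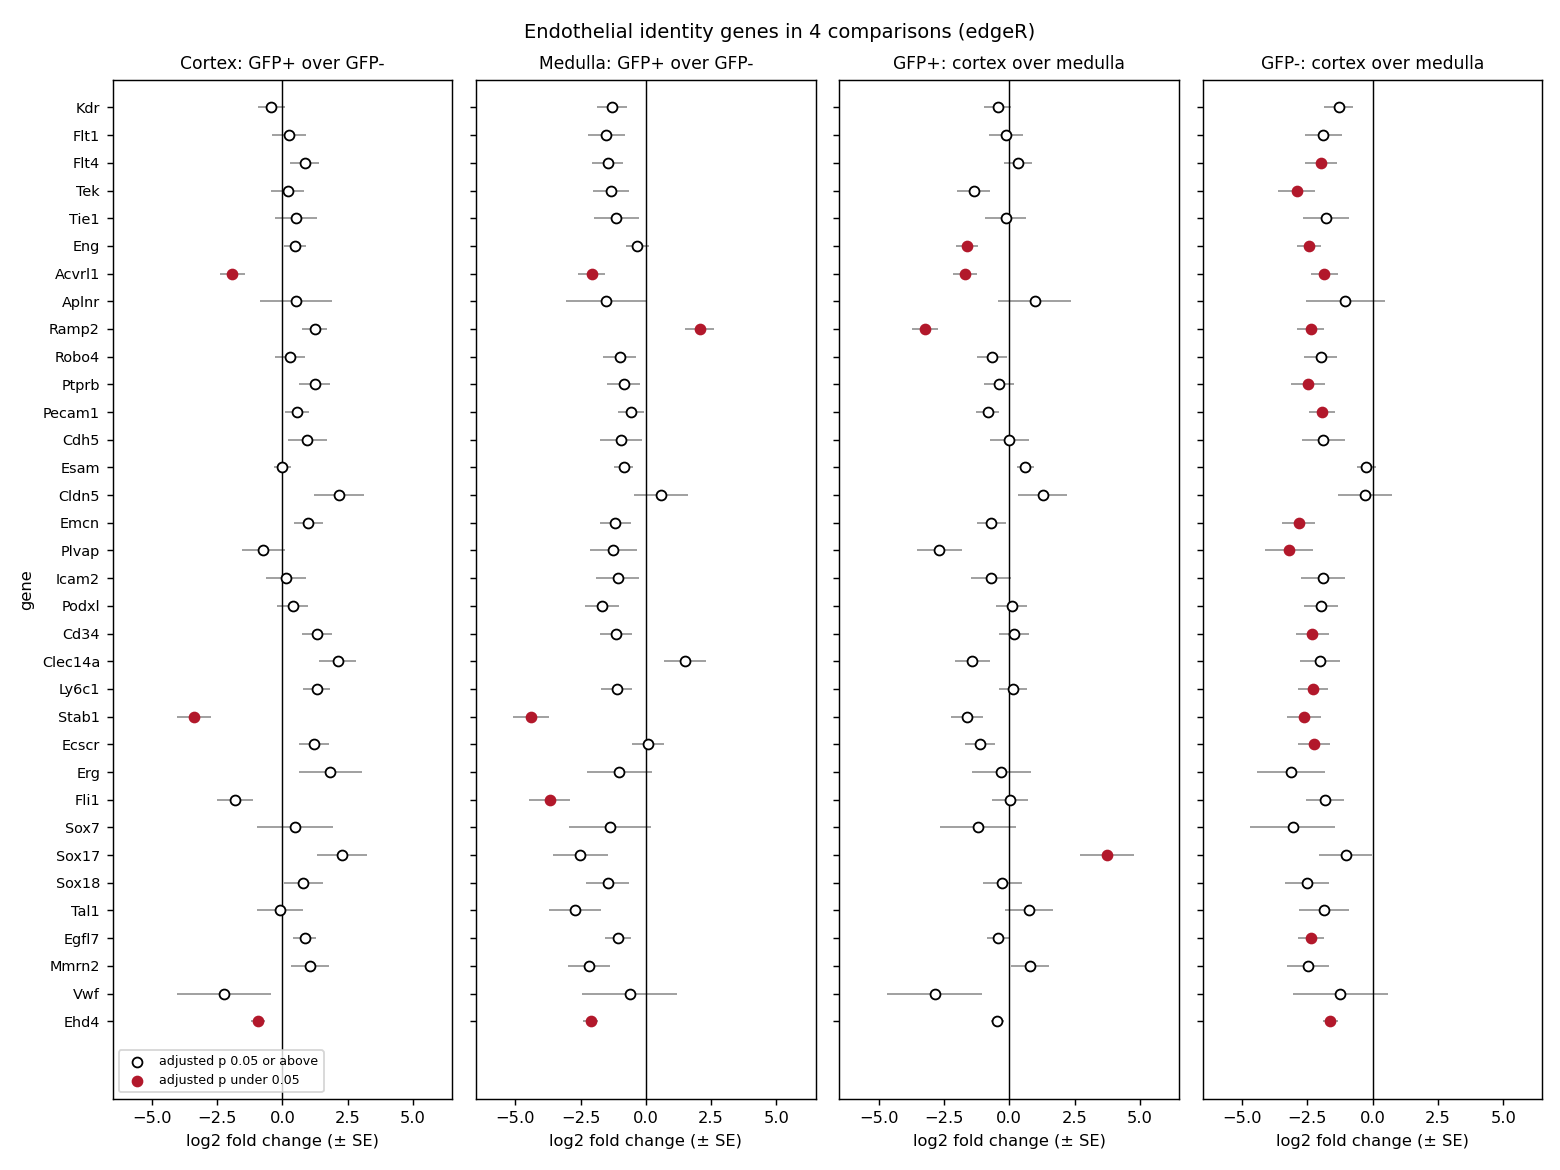
Log2 fold change with its SE (horizontal axes) of the 34 endothelial identity genes (vertical axis) in the 4 comparisons, as estimated by edgeR with n = 3 libraries a group (medullary GFP-negative n = 2). Filled points have an adjusted p under 0.05: 3 in the cortical gate comparison, 5 in the medullary, 4 between GFP-positive cells and 15 between GFP-negative cells, where all 34 estimates are negative.

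Among the receptors, those of VEGF passed the test in no gate comparison. Kdr, the main signalling receptor for VEGF-A, had 18.9, 28.2 and 16.6 CPM in cortical GFP-positive libraries, against 26.7, 49.9 and 9.21 CPM in cortical GFP-negative libraries, and 24.0, 36.2 and 26.3 CPM in medullary GFP-positive libraries, against 42.5 and 98.9 CPM in medullary GFP-negative libraries. Its cortical groups overlap, its medullary groups do not, and it passed the test in no comparison. Flt1, which binds VEGF-A and limits its access to Kdr, reached 68.1 CPM in cortical GFP-positive library 2 and 160 CPM in medullary GFP-negative library 2, with 9.79 to 48.3 CPM in the other 9 libraries. Flt4, the VEGF-C receptor of lymphatic and sinusoidal endothelium, had 4.18, 5.06 and 5.35 CPM in cortical GFP-negative libraries, against 4.75 and 33.8 CPM in medullary GFP-negative libraries. Its fall in the cortex (log2 -1.98, SE 0.61, edgeR adjusted p = 0.046) was not seen without medullary GFP-negative library 2, where the difference was 0.034.

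Tek is the angiopoietin receptor Tie2, and Tie1 is its partner. Tek had 3.74, 17.9 and 4.41 CPM in cortical GFP-positive libraries, against 21.1, 19.9 and 26.0 CPM in medullary GFP-positive libraries, groups that do not overlap but did not pass the test (log2 -1.36, SE 0.64, edgeR adjusted p = 0.19). In GFP-negative cells it had 6.72, 11.7 and 4.21 CPM in the cortex, against 26.4 and 86.9 CPM in the medulla, and fell by 2.91 on the log2 scale (SE 0.71, edgeR adjusted p = 0.019). Tie1 ranged from 0.979 to 12.8 CPM in the 9 libraries other than the medullary GFP-negative ones, which had 7.38 and 27.0 CPM, and passed in no comparison. Ptprb, a phosphatase that restrains Tek, had 5.63, 11.7 and 4.41 CPM in cortical GFP-negative cells, against 28.6 and 52.5 CPM in medullary GFP-negative cells (log2 -2.48, SE 0.65, edgeR adjusted p = 0.026). Robo4, a guidance receptor of the endothelium, and Aplnr, the apelin receptor, passed in no comparison, with at most 27.2 and 6.31 CPM in any library.

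Eng and Acvrl1 together receive circulating BMP signals in endothelium, and both were lower in the cortex within each gate, while Acvrl1 alone of the pair passed between the gates. Eng had 10.9, 21.8 and 26.4 CPM in cortical GFP-positive cells, against 53.4, 79.0 and 48.6 CPM in medullary GFP-positive cells, with no overlap (log2 -1.62, SE 0.41, edgeR adjusted p = 0.026). It had 9.33, 23.0 and 9.76 CPM in cortical GFP-negative cells, against 64.9 and 86.8 CPM in medullary GFP-negative cells, again with no overlap (log2 -2.43, SE 0.45, edgeR adjusted p = 0.0063). Between the gates Eng did not pass, at a log2 difference of 0.49 in the cortex and -0.33 in the medulla (SE 0.41 and 0.45, edgeR adjusted p = 0.47 and 0.66). Acvrl1 had 3.25, 6.53 and 3.69 CPM in cortical GFP-positive cells, against 11.5, 19.3 and 20.4 CPM in cortical GFP-negative cells (log2 -1.92, SE 0.48, edgeR adjusted p = 0.024). Its medullary levels were 11.5, 25.5 and 6.52 CPM in GFP-positive cells, against 55.5 and 67.1 CPM in GFP-negative cells (log2 -2.08, SE 0.51, edgeR adjusted p = 0.015). Between GFP-positive cells of the tissues, where its libraries overlap, the fall in the cortex (log2 -1.69, SE 0.48, edgeR adjusted p = 0.038) passed in 9 of 20 alternatives (adjusted p up to 0.14). Between GFP-negative cells it fell without overlap (log2 -1.85, SE 0.50, edgeR adjusted p = 0.030) and passed in 15 of 20. Its GFP-positive libraries lie below every GFP-negative library of the same tissue, as the macrophage sums do. In the cortex the call was lost on leaving out GFP-positive library 1 or 3, or GFP-negative library 2 or 3 (adjusted p up to 0.078), and the medullary call without medullary GFP-positive library 1 or GFP-negative library 2 (adjusted p up to 0.075).

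Ramp2, which joins the calcitonin receptor-like receptor to make the adrenomedullin receptor, was the gene of the set that rose with GFP in the medulla. It had 83.7, 130 and 66.7 CPM in medullary GFP-positive cells, against 13.4 and 31.3 CPM in medullary GFP-negative cells (log2 2.07, SE 0.55, edgeR adjusted p = 0.024). Cortical GFP-positive cells had 6.01, 16.8 and 7.47 CPM, so the cortex stood below the medulla within the GFP-positive gate without overlap (log2 -3.21, SE 0.50, edgeR adjusted p = 0.0026). Cortical GFP-negative cells had 3.96, 6.13 and 2.83 CPM, and Ramp2 also passed as lower there than in medullary GFP-negative cells, without overlap. Set against Pecam1 in the same library, Ramp2 counts were 1.98 to 4.80 times those of Pecam1 in medullary GFP-positive cells and 0.290 to 0.559 times in the other 8 libraries. The medullary rise did not pass without medullary GFP-positive library 2 or without medullary GFP-negative library 1. The tissue difference in GFP-positive cells passed in all 20 alternative settings tried. Glial genes stood high in the medullary GFP-positive libraries, and their part in the result was not tested. Ramp2 shares 1103 of its 3301 annotated exonic bases with the neighbouring gene Vps25, so some of its reads are uncertain.

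**Figure D3:**
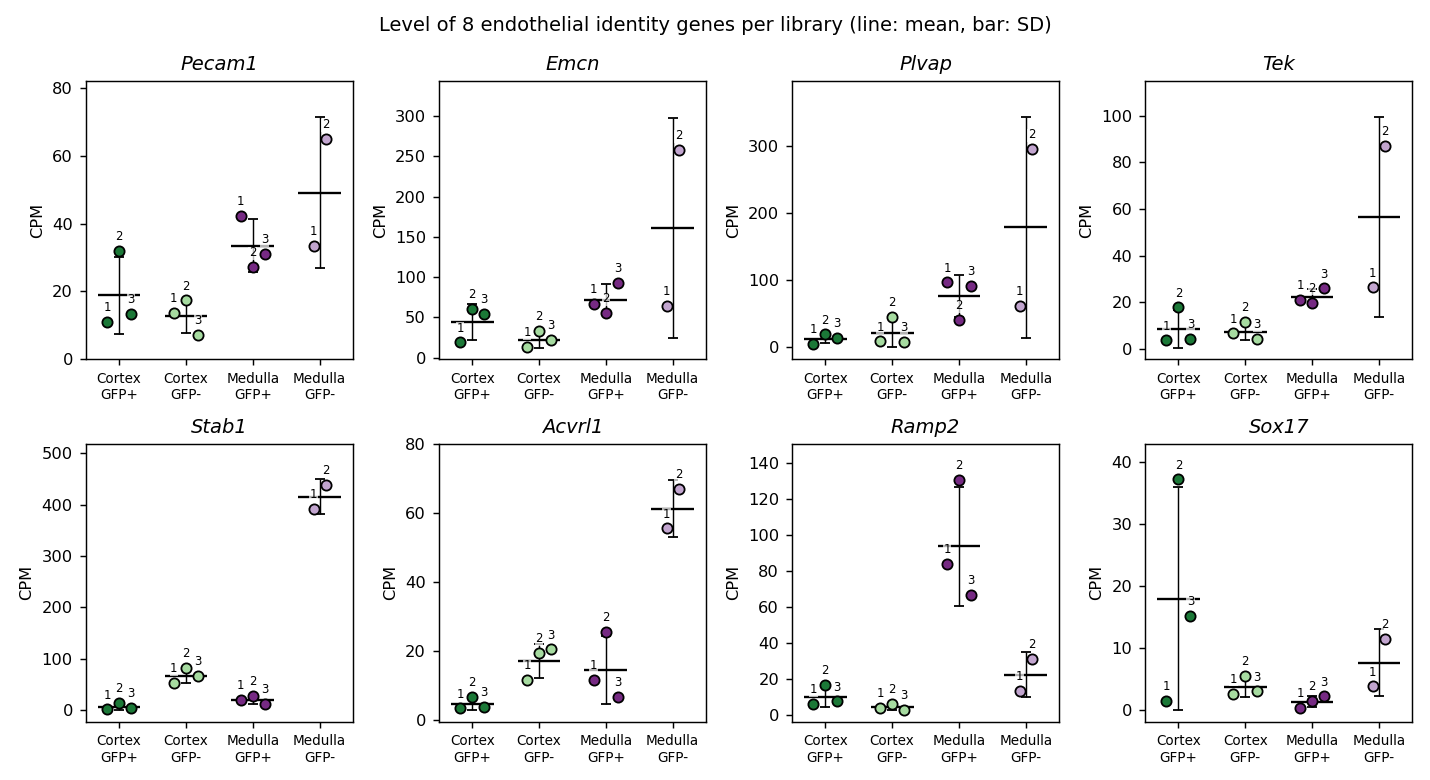
CPM (vertical axes, linear) of 8 endothelial identity genes in each library, numbered by replicate, in cortical GFP-positive, cortical GFP-negative, medullary GFP-positive and medullary GFP-negative cells; lines are means and bars SDs (n = 3, 3, 3 and 2). Pecam1, Emcn, Plvap and Tek are highest in medullary GFP-negative library 2, Stab1 and Acvrl1 in both medullary GFP-negative libraries, Ramp2 in the 3 medullary GFP-positive libraries, and Sox17 in cortical GFP-positive libraries 2 and 3.

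The junction and surface proteins that define endothelium most widely passed the test in no gate comparison. Pecam1, the adhesion molecule CD31, had 11.1, 31.9 and 13.4 CPM in cortical GFP-positive cells, against 13.7, 17.3 and 7.24 CPM in cortical GFP-negative cells, and 42.3, 27.1 and 31.0 CPM in medullary GFP-positive cells, against 33.5 and 65.0 CPM in medullary GFP-negative cells. The gates overlap in both tissues, and the fall in the cortex among GFP-negative cells passed the test (log2 -1.95, SE 0.50, edgeR adjusted p = 0.023). Emcn, a mucin of capillary and venous endothelium, had 19.0, 60.4 and 54.5 CPM in cortical GFP-positive cells, against 13.1, 32.9 and 21.6 CPM in cortical GFP-negative cells, and 66.5, 55.5 and 92.9 CPM in medullary GFP-positive cells, against 64.2 and 258 CPM in medullary GFP-negative cells. Its GFP-negative cells also fell in the cortex (log2 -2.84, SE 0.62, edgeR adjusted p = 0.012). Plvap forms the diaphragms of fenestrated capillaries. It had 4.14, 17.9 and 13.1 CPM in cortical GFP-positive cells, against 95.8, 39.7 and 90.3 CPM in medullary GFP-positive cells, with no overlap and a log2 difference of -2.68 that missed the threshold (SE 0.86, edgeR adjusted p = 0.063). In GFP-negative cells it fell in the cortex by 3.19 on the log2 scale (SE 0.92, edgeR adjusted p = 0.037), with 7.54, 43.7 and 7.24 CPM there and 60.8 and 295 CPM in the medulla.

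Stab1, a scavenger receptor of sinusoidal endothelium and of macrophages, had the largest gate difference of the set. It had 1.42, 13.6 and 4.23 CPM in cortical GFP-positive cells, against 53.2, 82.4 and 66.1 CPM in cortical GFP-negative cells (log2 -3.39, SE 0.64, edgeR adjusted p = 0.0061). Medullary levels were 19.5, 27.0 and 12.2 CPM in GFP-positive cells, against 391 and 439 CPM in GFP-negative cells (log2 -4.40, SE 0.68, edgeR adjusted p = 0.0015). The groups do not overlap, and both calls held in all 20 alternatives. Between the medullary GFP-negative libraries Stab1 was nearly equal, unlike Emcn or Plvap. Its tissue difference in GFP-negative cells also passed (log2 -2.63, SE 0.64, edgeR adjusted p = 0.019). The macrophage genes moved with the gate in the same direction, all 14 of them past the threshold in both tissues, with median log2 differences of -4.42 in the cortex and -4.78 in the medulla. The part of macrophage RNA in the Stab1 result was not tested.

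The other surface genes showed a tissue difference in the GFP-negative gate or none. Cd34, a sialomucin of endothelium and blood progenitors, fell there with 3.47, 12.7 and 6.77 CPM in the cortex, against 14.5 and 61.6 CPM in the medulla (log2 -2.31, SE 0.63, edgeR adjusted p = 0.029). Ly6c1 and Ecscr, a regulator of endothelial migration, fell in the same comparison (log2 -2.28 and -2.25, SE 0.59 and 0.62, edgeR adjusted p = 0.023 and 0.031). Cdh5, the cadherin of endothelial junctions, Icam2, a leukocyte ligand, and Podxl, a sialomucin of the luminal surface, had negative differences there (log2 -1.89, -1.91 and -1.98) that did not pass (edgeR adjusted p = 0.13, 0.14 and 0.060). Esam, a junction protein, had the narrowest relative range of the set over the 11 libraries, with 18.1, 22.3 and 28.0 CPM in cortical GFP-positive cells, against 22.4, 18.4 and 28.0 CPM in cortical GFP-negative cells, and 13.8, 10.6 and 20.4 CPM in medullary GFP-positive cells, against 17.7 and 36.3 CPM in medullary GFP-negative cells. Cldn5, a tight junction protein, had 11.1 and 11.5 CPM in cortical GFP-positive libraries 2 and 3 and 0.521 to 7.69 CPM in the other 9 libraries. Clec14a, a lectin of sprouting vessels, had 6.58, 13.4 and 13.4 CPM in cortical GFP-positive cells, against 3.66, 3.08 and 0.945 CPM in cortical GFP-negative cells, which do not overlap but did not pass (log2 2.12, SE 0.72, edgeR adjusted p = 0.076). It had 25.9, 46.9 and 15.8 CPM in medullary GFP-positive cells, against 2.88 and 18.1 CPM in medullary GFP-negative cells, and these groups overlap.

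Of the 6 transcription factors, Fli1 and Sox17 each passed in 1 comparison and the other 4 passed in none. Fli1, an ETS factor of endothelium and blood cells, had 1.34, 7.85 and 6.89 CPM in medullary GFP-positive cells, against 46.7 and 91.9 CPM in medullary GFP-negative cells (log2 -3.68, SE 0.77, edgeR adjusted p = 0.0073). In the cortex it had 1.47, 9.27 and 5.63 CPM in GFP-positive cells, against 16.6, 14.7 and 27.0 CPM in GFP-negative cells, with no overlap but no pass (log2 -1.83, SE 0.69, edgeR adjusted p = 0.11). Sox17, a factor of arterial identity, had 1.51, 37.2 and 15.2 CPM in cortical GFP-positive cells, against 0.361, 1.42 and 2.19 CPM in medullary GFP-positive cells (log2 3.75, SE 1.03, edgeR adjusted p = 0.035). Cortical GFP-positive library 1 overlaps with the medullary libraries, so the rise comes from libraries 2 and 3, and it did not pass without either of them (adjusted p = 0.11 and 0.062), nor without any 1 of the 3 medullary GFP-positive libraries (adjusted p = 0.056 to 0.10) or with limma voom (adjusted p = 0.20). Cortical GFP-negative cells had 2.65, 5.51 and 2.99 CPM of Sox17 and medullary GFP-negative cells 3.80 and 11.4 CPM. Sox17 shares 804 of its 4772 exonic bases with an unnamed transcript on the opposite strand. Sox18 and Sox7, its relatives, were highest in medullary GFP-negative library 2, at 39.4 and 15.5 CPM. Erg, an ETS factor, and Tal1, a factor of blood and endothelial progenitors, had at most 4.30 and 2.85 CPM in any library.

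Among the secreted and other proteins, Ehd4, an endocytic trafficking protein, fell in GFP-positive cells of both tissues. It had 27.6, 40.7 and 25.6 CPM in cortical GFP-positive cells, against 52.6, 62.5 and 65.6 CPM in cortical GFP-negative cells (log2 -0.94, SE 0.26, edgeR adjusted p = 0.037). Medullary levels were 36.8, 60.2 and 31.9 CPM in GFP-positive cells, against 161 and 210 CPM in GFP-negative cells (log2 -2.11, SE 0.29, edgeR adjusted p = 0.00071). Neither pair of groups overlaps. Ehd4 also passed as lower in cortical than in medullary GFP-negative cells, again without overlap. The medullary gate call held in all 20 alternatives and the cortical gate call in 14. The latter was lost without any 1 of cortical GFP-positive libraries 1 and 3 and of the 3 cortical GFP-negative libraries. It was also lost with age as a term (adjusted p up to 0.11 over these settings). Egfl7, a matrix protein of vessels, fell in cortical GFP-negative cells, with 5.00, 11.9 and 11.1 CPM, against 26.8 and 68.4 CPM in medullary GFP-negative cells (log2 -2.35, SE 0.49, edgeR adjusted p = 0.010). Mmrn2, the matrix ligand of Clec14a, passed in no comparison, with 1.44 to 39.9 CPM. Vwf, the clotting factor stored by endothelium of larger vessels, was near the floor of 3 counts in many libraries and reached 3.12 CPM at most.

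Across the 11 libraries the genes fell into patterns that the gates and tissues only partly separate. The mean of 8 core genes (Pecam1, Cdh5, Tie1, Esam, Emcn, Plvap, Egfl7 and Kdr), taken without the gene itself, had a Pearson r of at least 0.8 with 17 of the 34 genes on the log2 scale, led by Tek (0.942), Emcn (0.941) and Sox18 (0.937). For 5 genes the r with the mean of the macrophage genes was higher than that with the core: Stab1 (0.954 against 0.512), Ehd4 (0.921 against 0.549), Acvrl1 (0.909 against 0.534), Fli1 (0.832 against 0.420) and Esam (0.241 against 0.106). Ramp2 and Clec14a had r of 0.799 and 0.837 with the mean of the glial genes, and 0.618 and 0.515 with the core. Sox17 and Cldn5 followed none of these, with r of 0.305 and 0.071 with the core. The core and macrophage means had an r of 0.329 with each other. These correlations describe 11 libraries that share groups, depth and library preparation, and carry no test.

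**Figure D4:**
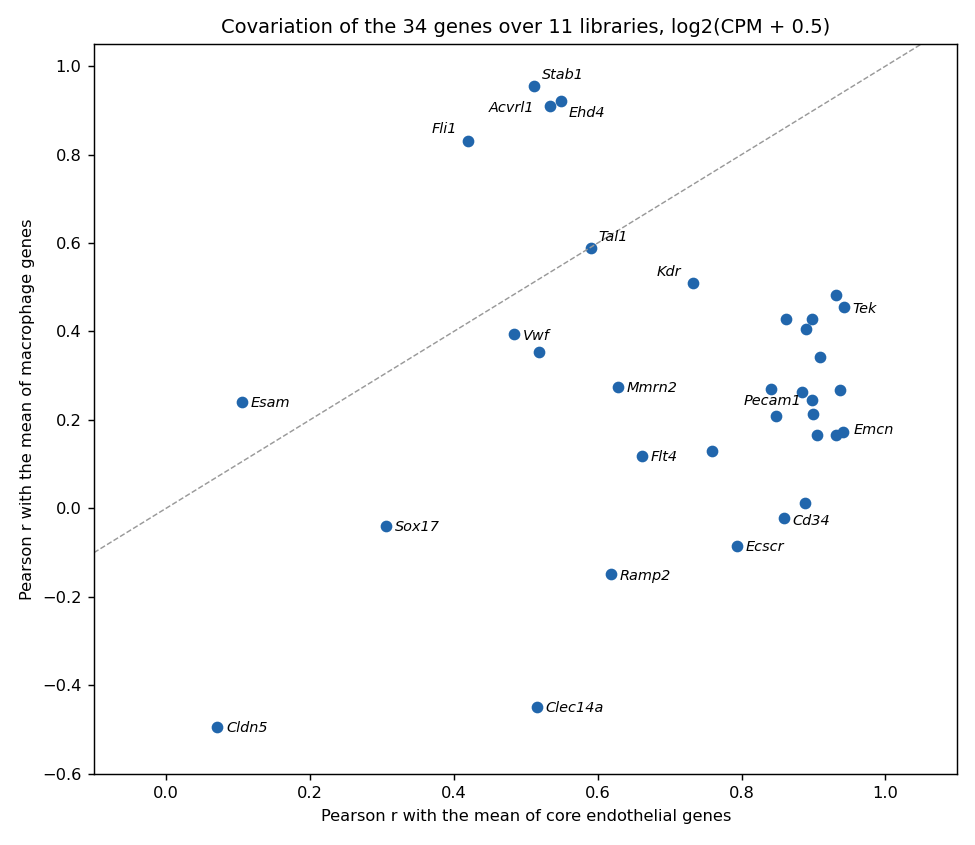
Pearson r over 11 libraries of each endothelial identity gene with the mean of the core endothelial genes (horizontal axis, without the gene itself) and with the mean of 14 macrophage genes (vertical axis), on log2(CPM + 0.5); the dashed line marks equal values. Stab1, Ehd4, Acvrl1 and Fli1 stand at the top, at 0.832 to 0.954 with the macrophage mean, while 17 genes lie at 0.8 or more on the horizontal axis.

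Outside the set, the 10 genes whose levels were most like the core mean, among 15890 genes with a mean of at least 1 CPM, were Mga (r = 0.951), Tmem88 (0.948), Gimap4 (0.944), Fam167b (0.943), Shank3 (0.941), Tap2 (0.940), Zdhhc18 (0.936), Dazap1 (0.927), Brpf1 (0.926) and AU021092 (0.922). Of the endothelial identity genes, 16 stood among the 100 most similar, 6 of them core genes, which were ranked against a mean that includes them.

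Promoter sequence was read for 3 genes to set the 2 leading patterns side by side: Emcn and Tek, which followed the core, and Stab1, which followed the macrophage genes. RefSeq promoters (GRCm38.p6, the mm10 build) were matched for 17 of the 34 genes. Each line gives the first 200 of the 250 bases before the start, so the 50 bases next to the start are not shown, from chr3:137340828-137341027 on the plus strand for Emcn, chr4:94739039-94739238 on the plus strand for Tek and chr14:31168692-31168891 on the minus strand for Stab1. Capitals mark GGAA, the core that ETS factors such as Fli1 and Erg bind, or TTCC, its reverse complement.
Emcn: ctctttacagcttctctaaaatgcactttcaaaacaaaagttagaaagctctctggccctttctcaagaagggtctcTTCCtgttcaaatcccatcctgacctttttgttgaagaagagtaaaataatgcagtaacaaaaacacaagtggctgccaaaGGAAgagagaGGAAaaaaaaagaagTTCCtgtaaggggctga
Tek: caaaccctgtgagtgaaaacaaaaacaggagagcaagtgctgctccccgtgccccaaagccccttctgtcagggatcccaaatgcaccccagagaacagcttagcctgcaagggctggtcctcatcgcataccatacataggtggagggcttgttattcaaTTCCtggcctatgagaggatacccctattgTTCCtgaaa
Stab1: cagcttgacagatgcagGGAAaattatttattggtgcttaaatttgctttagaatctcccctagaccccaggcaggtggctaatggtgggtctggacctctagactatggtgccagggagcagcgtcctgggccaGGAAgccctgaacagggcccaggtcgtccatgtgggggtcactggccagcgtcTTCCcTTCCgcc
Emcn and Stab1 hold 4 such cores each in these windows and Tek holds 2. Over the 250 bases before the start, GGAA on either strand was present in 16 of the 17 matched genes, beside 94.2% of 27025 genes with a promoter, so its presence does not set the genes apart. The longer AGGAAG, which contains GGAA, was present in 11 of 17, beside 32.3% of all genes, and CGGAAG in 2 of 17, beside 15.3%. ACAAT, a core of SOX sites, was present in 6 of 17, beside 30.9%. AACAGGAA, a joint forkhead and ETS motif that also contains GGAA, was present in Emcn and Egfl7, beside 2.5% of all genes. All motifs were searched on both strands. A match describes letters in the window, not a bound site.

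Of 21 ligands and co-receptors of these receptors, 18 were tested. With GFP, 3 rose and 1 fell in the cortex, against 7.14% higher and 7.59% lower over all genes, and 4 rose and 1 fell in the medulla, against 10.2% higher and 11.1% lower. Between GFP-negative cells 3 fell in the cortex (Pgf, Nrp2 and Adm), against 10.6% lower over all genes. Vegfd, a ligand of Flt4, had 70.6, 51.1 and 62.7 CPM in cortical GFP-positive cells, against 3.32, 4.15 and 1.54 CPM in cortical GFP-negative cells (log2 4.35, SE 0.45, edgeR adjusted p = 0.00032). It had 19.7, 17.5 and 43.6 CPM in medullary GFP-positive cells, against 3.91 and 3.98 CPM in medullary GFP-negative cells (log2 2.77, SE 0.49, edgeR adjusted p = 0.0032). Vegfa, the main ligand of Kdr, had 140, 61.1 and 98.4 CPM in medullary GFP-positive cells, against 35.7 and 18.3 CPM in medullary GFP-negative cells (log2 1.88, SE 0.47, edgeR adjusted p = 0.017). Its cortical rise (log2 1.32, SE 0.39, edgeR adjusted p = 0.0496) passed in 11 of 20 alternatives. Vegfb rose in the medulla and passed in 7 of 20 alternatives, and Nrp1, a VEGF co-receptor also used by macrophages, fell there (log2 -2.15, SE 0.54, edgeR adjusted p = 0.018). Pgf, a ligand of Flt1, had 1.78, 2.23 and 0 CPM in cortical GFP-positive cells and no count in cortical GFP-negative cells. Pooled over libraries it was 35.8-fold higher if 3 counts are assumed for the empty group, but GFP-positive library 3 was empty too. The rise passed in 12 of 19 alternatives.

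Angpt2, the angiopoietin that opposes Tek signalling in most settings, was the ligand of that receptor that marked medullary GFP-positive cells. It had 104, 264 and 112 CPM there, against 2.59 and 4.50 CPM in medullary GFP-negative cells (log2 5.50, SE 1.01, edgeR adjusted p = 0.0036), and cortical GFP-positive cells had 9.65, 8.24 and 2.57 CPM (cortex over medulla log2 -4.55, SE 0.80, edgeR adjusted p = 0.0046). Adm, which encodes adrenomedullin, the ligand of the receptor that Ramp2 helps to form, had 1.78, 5.07 and 0 CPM in cortical GFP-positive cells, against 107, 103 and 66.4 CPM in medullary GFP-positive cells (log2 -5.33, SE 1.00, edgeR adjusted p = 0.0066). It also fell in cortical GFP-negative cells, with 0.336, 0 and 0.630 CPM, against 38.5 and 43.5 CPM in medullary GFP-negative cells (log2 -6.99, SE 1.19, edgeR adjusted p = 0.0041). Slit2 and Slit3, guidance ligands of the Robo family, fell in cortical against medullary GFP-positive cells (log2 -4.85 and -2.92, SE 0.98 and 0.44, edgeR adjusted p = 0.0090 and 0.0023). Slit3 also fell with GFP in the cortex (log2 -2.62, SE 0.44, edgeR adjusted p = 0.0034), and its gate difference was lower in the cortex than in the medulla by the interaction (log2 -3.55, SE 0.65, edgeR adjusted p = 0.030), which passed in 13 of 19 alternatives. The median log2 difference over the 18 tested was 1.18 with GFP in the cortex and 0.71 in the medulla.

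Of a further 29 endothelial genes, 27 were tested, and between GFP-negative cells 10 of them fell and 1 rose in the cortex, against 10.6% lower and 8.06% higher over all genes, with a median of -2.05. Fewer of them fell without medullary GFP-negative library 2, and fewer of all genes did too. The 10 were Adgrl4, Adgrf5, Cd93, Rasip1, S1pr1, Notch4, Nostrin, Exoc3l2, Ackr1 and Cd36, and Tspan12 rose. Adgrl4, an adhesion receptor of endothelium, had 5.63, 11.1 and 7.16 CPM in cortical GFP-negative cells, against 43.1 and 111 CPM in medullary GFP-negative cells (log2 -3.27, SE 0.47, edgeR adjusted p = 0.0020), and this call held in all 20 alternatives. Against the same background as for the ligands, 0 rose with GFP in either tissue, 2 fell in the cortex (Cd93 and Tspan12) and 4 fell in the medulla (Cd93, Tspan12, Nostrin and Cd36), with medians of 0.82 and -0.86. Cd93 and Cd36, which macrophages also use, were among them: Cd93 had 20.4, 9.69 and 13.1 CPM in medullary GFP-positive cells, against 248 and 268 CPM in medullary GFP-negative cells. Between GFP-positive cells, cortex over medulla, 2 of the 27 were higher (Gja4 and Tspan12) and 1 was lower (Adgrl4), against 6.04% higher and 9.45% lower over all genes. Gja4, a connexin of arterial endothelium and smooth muscle, had 3.51, 20.9 and 21.6 CPM in cortical GFP-positive cells, against 0.0516, 0 and 0.365 CPM in medullary GFP-positive cells (log2 6.84, SE 1.67, edgeR adjusted p = 0.021), and was high in the same 2 cortical libraries as Sox17. Pericyte and smooth muscle genes summed to 62.6, 241 and 136 CPM in those cortical GFP-positive libraries and 115 to 283 CPM in medullary GFP-positive libraries. Their part in the Gja4 and Sox17 results was not tested.

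Of 16 other transcription factors of endothelium and its precursors, 15 were tested. Foxo1, a forkhead factor active in quiescent vessels and many other cells, rose with GFP in both tissues (log2 1.04 and 2.30, SE 0.23 and 0.28, edgeR adjusted p = 0.013 and 0.00036), as did Heyl, a Notch target of mural and other cells (log2 2.38 and 4.54, SE 0.43 and 0.52, edgeR adjusted p = 0.0047 and 0.00030). Hhex rose in the cortex (log2 1.93, SE 0.36, edgeR adjusted p = 0.0060). Lyl1, a relative of Tal1 used by blood cells, fell with GFP in both tissues, with 1.08, 2.78 and 1.15 CPM in medullary GFP-positive cells, against 54.9 and 56.0 CPM in medullary GFP-negative cells (log2 -5.02, SE 0.45, edgeR adjusted p = 8.4e-05). Ets2, Klf2 and Mef2c fell with GFP in the medulla. Ets2 had a higher gate difference in the cortex than in the medulla by the interaction (log2 1.74, SE 0.28, edgeR adjusted p = 0.025), which passed in 15 of 19 alternatives. In GFP-negative cells, 7 of the 15 fell in the cortex (Ets2, Elk3, Gata2, Klf2, Klf4, Lyl1 and Mef2c) and 0 rose, against 10.6% lower and 8.06% higher over all genes. Without medullary GFP-negative library 2 fewer of the 15 fell, and fewer of all genes did too. Foxo1, Heyl and Hey1 fell in cortical against medullary GFP-positive cells, where 9.45% of all genes were lower. Of 6 lymphatic genes, 5 were tested. Lyve1, also a macrophage receptor, had no count in cortical GFP-positive cells and 3.77, 11.5 and 2.35 CPM in medullary GFP-positive cells. Pooled over libraries, that makes it 151-fold lower in the cortex if 3 counts are assumed for the empty group. Lyve1 also passed as lower in cortical than in medullary GFP-negative cells. Reln rose with GFP in the cortex and Pdpn in the medulla, and Prox1, which defines lymphatic endothelium, passed in no comparison.

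The authors' deposited tables cover 3 of these comparisons and ask whether a log2 fold change exceeds 1 in size. Among the 34 genes they list Stab1 below an adjusted p of 0.05 in the cortical gate comparison (log2 -3.23, adjusted p = 0.00132), Stab1, Fli1 and Ehd4 in the medullary gate comparison (log2 -4.16, -3.43 and -2.10) and Ramp2 between GFP-positive cells of the tissues (log2 -3.15, adjusted p = 0.000153). Signs are those of GFP-positive over GFP-negative and of cortex over medulla in the authors' deposited tables as well. No authors' table of the comparison between GFP-negative cells was analysed here.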

How the data were processed

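Raw read counts per gene, as deposited by the authors, were the starting point for 11 poly(A)-primed libraries made with 17 cycles of PCR. GSNAP, featureCounts 1.6.0, DESeq2 1.18.1, bcl2fastq 2.19.1 and the build mm10 are named in the submitters' processing notes without their roles, and the kit described in the labels' protocols marks no strand. Log2 fold changes and p-values of 3 comparisons come in separate deposited tables, which from the file headers and the test statistic test for a log2 change of more than 1 in size; 17 columns of normalized signal in them were not used here. Without molecular identifiers, PCR copies count as reads, so the floor of 3 counts (0.104 to 0.157 CPM per library) covers counting error only.

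Libraries were grouped by title. The tests on counts used edgeR 4.0.16 (R 4.3.3; filterByExpr, TMM scaling, quasi-likelihood test, Benjamini-Hochberg adjustment over 20893 genes within each comparison, threshold 0.05), in 1 fit of all 11 libraries with 7 residual degrees of freedom. An SE is the absolute log2 change over the square root of the F statistic. CPM use TMM-scaled sizes. The step was also run on simulated counts, with changes planted in well-counted genes and libraries drawn independently. That run does not cover low-count genes or libraries that share mice, and nothing is concluded from it here. Library pairs within groups differed by more than sampling noise (chi-square per degree of freedom 27.0 to 94.1). The 34 genes, the other lists and the tests were chosen with earlier results of these data known. Genes named are all 34 members, the passing genes of the other lists of endothelial genes, ligands and factors, up to 5 more of each such list (here Prox1), and the 10 most similar genes. Lengths are as deposited, and 8 of the 34 genes overlap exons of another gene (GENCODE vM21). Alternatives were total-count scaling, DESeq2 size factors, no filter, a filter of 1 CPM in 2 libraries, DESeq2 1.42.0, limma 3.58.1 voom, age as a term, the replicate number as a block, only the groups compared, and leaving out each library.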

Additional observations from a re-analysis of the deposited data

Results flagged for a closer look

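A pair of genes outside the 34, Slit3 and Ets2, had gate differences that differed between cortex and medulla by the interaction test. Slit3 averaged 1.90 ± 0.55 CPM in cortical GFP-positive and 11.7 ± 2.8 CPM in cortical GFP-negative cells (SD, n = 3 each), and 14.4 ± 6.9 CPM in medullary GFP-positive (SD, n = 3) and 7.51 ± 3.68 CPM in medullary GFP-negative cells (SD, n = 2), an interaction of -3.55 on the log2 scale. Ets2 averaged 35.0 ± 7.5 CPM in cortical GFP-positive and 49.4 ± 4.8 CPM in cortical GFP-negative cells (SD, n = 3 each), and 26.1 ± 0.74 CPM in medullary GFP-positive (SD, n = 3) and 123 ± 33.7 CPM in medullary GFP-negative cells (SD, n = 2), an interaction of 1.74. The edgeR adjusted p reached 0.11 for Slit3 and 0.084 for Ets2 among the 19 alternatives.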

How the results depend on the processing

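Of the log2 differences of the 34 genes that had passed, 1 changed sign under an alternative: Flt4 between GFP-negative cells, at 0.034 without medullary GFP-negative library 2 and as low as -2.79 without another library. In the cortical gate comparison 0 genes passed as higher, against 1 with no low-count filter, 3 with DESeq2 and 1 with only the groups compared, and 0 to 1 when leaving out a library; the 3 lower genes became 1 to 3. In the medullary gate comparison DESeq2 called 8 lower in place of 4, and leaving out a library gave 3 to 10 lower (10 without medullary GFP-negative library 1) and 0 to 2 higher. Between GFP-positive cells the 1 higher gene, Sox17, was lost (0) with voom, with age as a term and with only the groups compared, and leaving out a library gave 0 to 1 higher and 1 to 4 lower; with age as a term 1 was lower in place of 3. Between GFP-negative cells leaving out a library gave 2 to 18 lower in place of 15, and the other settings gave 12 to 22. For the interaction DESeq2 called 4 higher and leaving out a library gave 0 to 2, in place of 0. The cause was not tested. In a fit that leaves medullary GFP-negative cells with 1 library, that library is assumed to vary like the other groups. Scaling by total counts moved the calls over all genes from 1492 higher and 1586 lower to 1244 and 2032 in the cortical gate comparison, and from 179 and 158 to 122 and 270 in the interaction, whose median over all genes was then -0.19 in place of -0.02.

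The labels give no sign that equal replicate numbers share a pool, and same-numbered cortical libraries had correlations of their deviations from the group means of 0.0475 to 0.0978, each the highest for its number. Same-numbered GFP-positive libraries of the 2 tissues had 0.0445 to 0.0719, again each the highest, although those numbered 2 differ in mouse age. Libraries 1 and 2 had 0.0646 and 0.0156 between the GFP-negative groups, and 0.0252 and -0.0122 between the medullary gates. With the replicate number as a block, 1 gene passed as higher in the cortical gate comparison in place of 0, and 5 as lower between GFP-positive cells in place of 3. The low counts of Vwf, Tal1, Erg and Aplnr limit what can be said of them at this depth.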
